A study of Mus musculus with 6 samples.

Results

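The CCAAT/enhancer-binding protein (C/EBP) family was represented by 6 genes of the 46095 in the deposited table, taken by their symbols: Cebpa, Cebpb, Cebpd, Cebpg, Cebpz and Ddit3. They were measured in 3T3-L1 cells, a mouse embryonic fibroblast line that stores fat after hormonal induction, all harvested 8 days after differentiation. Of the 6 samples, 3 were untreated controls and 3 were treated with 0.125 μg/mL flavonoids of Smilax glabra, a plant used in herbal medicine. No genetic change is named for either group, and nothing says whether the 3 samples of a group were separate cultures, so the spread that the p-values rest on may be technical only. Total RNA was sequenced as TruSeq libraries, and levels are given as FPKM, fragments scaled by gene length and by library depth.

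C/EBP proteins bind DNA as dimers through a basic region and a leucine zipper at their carboxyl end. In the textbook order of adipocyte differentiation, C/EBPβ (Cebpb) and C/EBPδ (Cebpd) are induced early by the hormone cocktail and switch on Pparg and C/EBPα (Cebpa), which then maintain the adipocyte state. C/EBPγ (Cebpg) has no activation domain of its own and works through its partners, among them ATF4. CHOP (Ddit3) is induced through ATF4 under stress, and its altered basic region keeps its dimers with other C/EBP proteins off their usual sites. Cebpz carries the family's name but is a nucleolar protein of ribosome assembly without a leucine zipper.

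The genes lie on 5 chromosomes of GRCm38, the assembly that mm10 denotes (GENCODE M21). Cebpa (chromosome 7, 35119293 to 35121928, plus strand), Cebpb (chromosome 2, 167688915 to 167690418, plus strand) and Cebpd (chromosome 16, 15887286 to 15891031, plus strand) have a principal transcript of 1 exon. Cebpg lies 62719 bases from Cebpa on the opposite strand (chromosome 7, 35046422 to 35056573). Ddit3 (chromosome 10, 127290774 to 127296288, plus strand) has 4 exons in its principal transcript, and Cebpz (chromosome 17, 78919006 to 78937066, minus strand) has 16.

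Promoter windows of 4 of the 6 genes were matched by symbol (RefSeq, GRCm38.p6), and Cebpd and Cebpz had no entry. They are shown for the 250 bases before each RefSeq start site. For Ddit3 and Cebpg that site lies inside the GENCODE span given above, so the window reaches into it. Capitals mark exact matches to any motif searched, on either strand. The windows are chr10:127290543-127290792 (plus strand), chr2:167688665-167688914 (plus strand), chr7:35119043-35119292 (plus strand) and chr7:35056567-35056816 (minus strand).
Ddit3: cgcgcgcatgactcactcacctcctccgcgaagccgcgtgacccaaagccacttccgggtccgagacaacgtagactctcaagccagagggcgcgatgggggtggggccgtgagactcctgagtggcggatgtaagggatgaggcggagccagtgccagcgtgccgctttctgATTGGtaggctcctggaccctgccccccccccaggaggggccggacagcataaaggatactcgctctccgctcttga
Cebpb: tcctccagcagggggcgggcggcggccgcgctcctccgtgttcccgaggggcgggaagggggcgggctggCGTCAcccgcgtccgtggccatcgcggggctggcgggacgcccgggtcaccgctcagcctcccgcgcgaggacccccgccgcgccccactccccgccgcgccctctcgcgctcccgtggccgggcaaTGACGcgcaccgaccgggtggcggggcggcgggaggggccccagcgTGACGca
Cebpa: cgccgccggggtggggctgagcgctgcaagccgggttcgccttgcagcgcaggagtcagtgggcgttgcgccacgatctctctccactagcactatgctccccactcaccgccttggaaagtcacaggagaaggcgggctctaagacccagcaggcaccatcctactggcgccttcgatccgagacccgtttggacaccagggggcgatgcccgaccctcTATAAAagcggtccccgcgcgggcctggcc
Cebpg: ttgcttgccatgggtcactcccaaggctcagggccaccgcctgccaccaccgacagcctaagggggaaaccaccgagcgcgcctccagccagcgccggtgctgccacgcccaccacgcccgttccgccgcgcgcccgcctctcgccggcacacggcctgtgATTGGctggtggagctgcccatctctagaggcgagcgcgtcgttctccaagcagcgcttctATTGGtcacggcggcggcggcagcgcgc

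The 7 motifs searched were TGATGNAA (the core of the composite C/EBP-ATF site), TTGCNNCAA (the C/EBP palindrome), TGACGTCA (the cyclic AMP response element) and TGACG (its core, contained in it), CCAAT and the endoplasmic reticulum stress element ERSE, which contains it, and TATAAA. The Cebpb window held TGACG at 3 places, 53 to 49 and 7 to 3 bases before the start site on the given strand and 180 to 176 bases before it on the other strand. That core occurs in 17.8% of all 32851 RefSeq windows of the same length. The Ddit3 window held CCAAT once on the other strand, 77 to 73 bases before the start site, and the Cebpg window held it at 2 places, 89 to 85 and 28 to 24 bases before the start site. CCAAT occurs in 33.8% of all windows. The Cebpa window held TATAAA 30 to 25 bases before the start site, as do 12.4% of all windows at any place. TGATGNAA, TTGCNNCAA, TGACGTCA and ERSE, present in 3.45%, 1.74%, 1.55% and 0.113% of all windows, had no match in these 4 windows of 250 bases. The Cebpb window was 81.6% G or C, against 70.8% for Cebpg, 66.4% for Cebpa, 64.8% for Ddit3 and a median of 52.4% over all windows. A match to a motif is a description of letters and not a binding site.

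The libraries' solved totals lay between 21952064 and 26355863 fragments, and the solved fragment numbers of the 6 genes ran from 366 for Cebpa in flavonoids replicate 1 to 14724 for Cebpd in flavonoids replicate 2. Counting error alone was therefore between 0.824% and 5.23% of a value. Untreated replicates 1 and 3 stood apart by gene length: the rank correlation of a gene's deviation from its group mean with its length was -0.747 in untreated replicate 1 and 0.733 in untreated replicate 3, across 11464 genes, against -0.120 to 0.118 in the other libraries. Of 12 listed adipocyte markers 8 averaged under 1 FPKM, Adipoq and Plin1 among them. Fabp4, Pparg, Lipe and Pnpla2 averaged above it, at 219.3, 10.8, 8.14 and 21.7 FPKM in untreated samples. The 12 markers summed to 216.6 to 292.4 FPKM in untreated and 205.3 to 241.3 FPKM in treated samples, most of it Fabp4. Of 12 listed symbols of preadipocyte and fibroblast markers, 10 were tested, and Pref1, another name of the listed Dlk1, had no entry. Of the 10 genes 0 rose and 3 fell (Lum 4.35-fold, Sfrp2 2.27-fold and Thy1 1.56-fold), with a median log2 change of -0.44. Of all tested genes 5.13% were called lower, and their median log2 change was -0.02. Calls on this list were not counted under other processing or with a library left out. The summed level of the preadipocyte and fibroblast markers was 3112 to 4296 FPKM in untreated and 2829 to 3217 FPKM in treated samples. Most of it was Col3a1, Col1a1 and Fn1, and the part of these markers in the results was not tested. A summed level of 9 macrophage markers was 14.0 to 19.1 FPKM in untreated and 25.9 to 28.3 FPKM in treated samples, most of it Cd14, while Ptprc and Aif1 were listed at 0 in all libraries. In bulk samples fewer cells of a type and less RNA per cell cannot be told apart.

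Of the 6 genes, Ddit3 and Cebpb rose with flavonoids, none fell, and 4 did not pass the test. All 6 averaged at least 1 FPKM and were tested with limma on log2(FPKM + 1), two-sided, with Benjamini-Hochberg adjustment over 11464 genes and a threshold of 0.05. By that rule 9.99% of all tested genes were called, 4.86% as higher and 5.13% as lower.

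**Figure D1:**
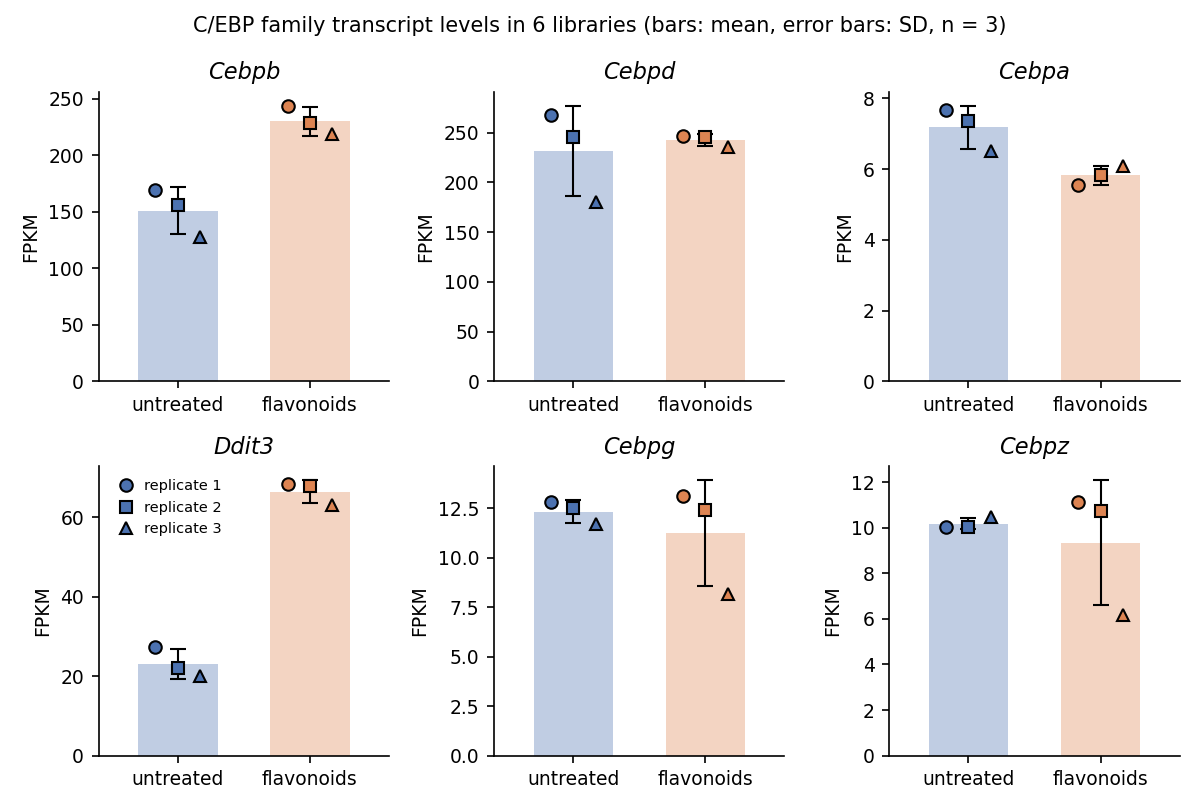
FPKM of each of the 6 genes in untreated and flavonoid-treated 3T3-L1 samples, with 1 panel per gene and its own axis from 0. Symbols are replicates 1 to 3, bars are means and error bars are SD (n = 3). Ddit3 and Cebpb separate without overlap upwards, Cebpa separates downwards by a smaller margin, and the SD of Cebpg and Cebpz in treated samples comes from flavonoids replicate 3.

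Cebpb, which opens the adipogenic cascade and also drives acute-phase genes, measured 169.6, 156.0 and 128.1 FPKM in untreated replicates 1, 2 and 3. In flavonoids replicates 1, 2 and 3 it measured 243.9, 228.4 and 218.6 FPKM. The lowest treated value lay above the highest untreated value, a separation seen upwards in 17.0% and in either direction in 34.3% of tested genes. Its mean rose 1.52-fold, from 151.3 ± 21.1 to 230.3 ± 12.7 FPKM (SD, n = 3 per group), a log2 change of 0.61 (SE 0.14, limma adjusted p = 0.0271). The direction was upward in all 18 alternatives, and the call held in 12 of them. With 1 library left out, limma gave adjusted p = 0.125 without untreated replicate 2, 0.127 without flavonoids replicate 1, 0.101 without flavonoids replicate 2 and 0.0710 without flavonoids replicate 3, and it called Cebpb without untreated replicate 1 (0.0135) or 3 (0.0181). The adjusted p was 0.0689 without the filter on low values. With each library's trend over gene length removed, the log2 change was 0.60 and the limma adjusted p 7.68e-04.

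Cebpd, the other early factor of adipogenesis, had the highest FPKM of the 6 genes in untreated samples. That place depends on the length of 2260 bases implied by the authors' values, as described below. It measured 268.3, 245.7 and 180.5 FPKM in untreated replicates 1, 2 and 3 and 246.8, 245.7 and 235.8 FPKM in the treated ones. The treated values fell inside the untreated range, in which untreated replicate 3 was low. The log2 change was 0.09, with a 95% interval from -0.28 to 0.45 (limma adjusted p = 0.765). Its estimate turned to -0.08 without untreated replicate 3. The rise of Cebpb was therefore not accompanied by a called change of Cebpd, and the difference between both changes was not tested.

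The ratio of Cebpb to Cebpd, both per length, was 0.632, 0.635 and 0.710 in untreated replicates and 0.988, 0.930 and 0.927 in flavonoids replicates. The groups did not overlap, and the ratio moved from 0.659 ± 0.0440 to 0.948 ± 0.0346 (SD, n = 3 per group). Untreated replicate 3, low for both genes, had the highest ratio of its group, still below every treated ratio. No p is given for ratios within the family.

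Cebpa, the late factor that with Pparg maintains the adipocyte state, was the least abundant per length, at 7.67, 7.36 and 6.50 FPKM in untreated and 5.55, 5.82 and 6.09 FPKM in treated samples. All 3 treated values lay below all 3 untreated values, as was the case downwards for 17.3% of tested genes. The log2 change was -0.26 (SE 0.12, 95% interval -0.54 to 0.02, limma adjusted p = 0.219), so the difference did not pass the test. It stayed negative, between -0.33 and -0.17, in all 18 alternatives, and none called it. Because Cebpb was higher and Cebpa lower in each treated sample, the ratio of Cebpb to Cebpa was 22.1, 21.2 and 19.7 in untreated and 44.0, 39.2 and 35.9 in treated samples. Its means were 21.0 ± 1.20 and 39.7 ± 4.06 (SD, n = 3 per group).

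Ddit3, which encodes CHOP, measured 27.2, 22.0 and 20.1 FPKM in untreated replicates 1, 2 and 3. It measured 68.4, 67.8 and 63.1 FPKM in flavonoids replicates 1, 2 and 3. The treated values lay close together and far above the untreated ones. The change was 1.49 on the log2 scale (SE 0.13, 95% interval 1.19 to 1.80, limma adjusted p = 0.00180), rank 10 among all tested genes by unadjusted p. All 18 alternatives called Ddit3 higher, with log2 changes from 1.35 to 1.61 and limma adjusted p-values from 2.90e-05 to 0.0203.

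Cebpg, the partner protein without an activation domain, measured 12.8, 12.5 and 11.7 FPKM in untreated replicates and 13.1, 12.4 and 8.16 FPKM in flavonoids replicates 1, 2 and 3. Treated replicates 1 and 2 lay near the untreated values and replicate 3 lay below every other library. The log2 change was -0.15 (95% interval -0.54 to 0.24, limma adjusted p = 0.624), and without flavonoids replicate 3 it was 0.05. Cebpz, the nucleolar factor, gave 10.04, 10.02 and 10.45 FPKM in untreated and 11.1, 10.7 and 6.19 FPKM in treated samples. Its log2 change was -0.15 (95% interval -0.60 to 0.30, limma adjusted p = 0.671) and 0.09 without flavonoids replicate 3.

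Flavonoids replicate 3 was thus the low library for both genes. On the log2(FPKM + 1) scale its difference from the mean of the other 2 treated samples was -0.59 for Cebpg and -0.73 for Cebpz, where the median over all tested genes was -0.03. As low a difference was found for 8.17% of all tested genes in the case of Cebpg and 3.62% in the case of Cebpz. Both genes are long, with lengths of 4702 and 4077 bases in the authors' values. Among 3640 tested genes over 4000 bases the median difference was -0.10, and 13.0% and 5.39% of them were as low as Cebpg and Cebpz. The part of gene length in these low values was not tested beyond this.

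**Figure D2:**
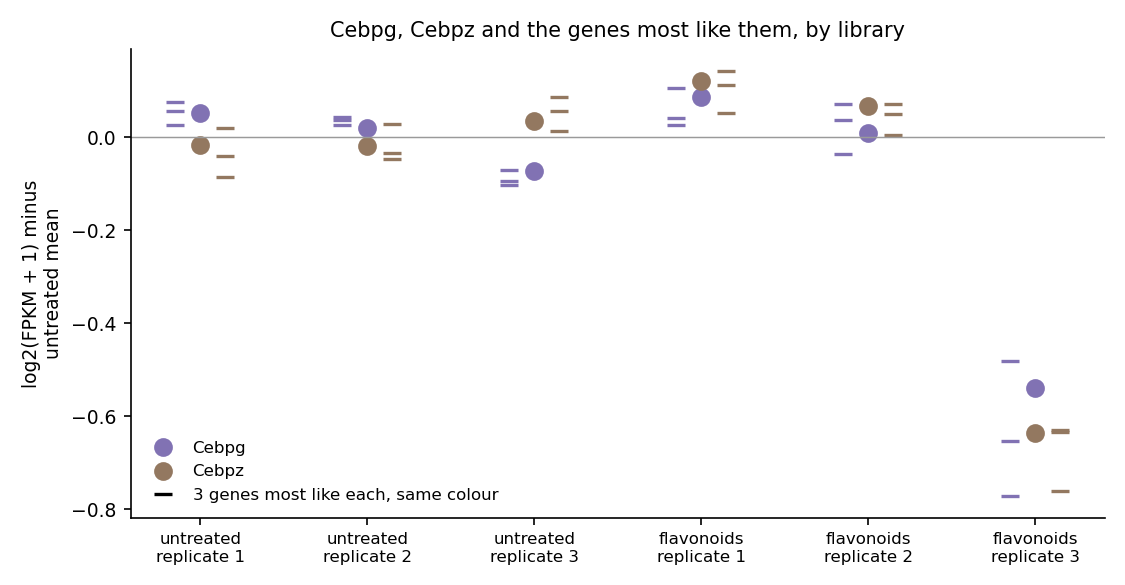
log2(FPKM + 1) of Cebpg and Cebpz minus the untreated mean of the same gene, for each of the 6 libraries. Circles are the genes themselves and short lines, in the same colour, the 3 genes whose values over the 6 libraries were most like each. The short lines follow the circles because those genes were picked by these same values. Only flavonoids replicate 3 lies far below 0 for Cebpg and Cebpz, whose treated values there were 8.16 and 6.19 FPKM.

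**Figure D3:**
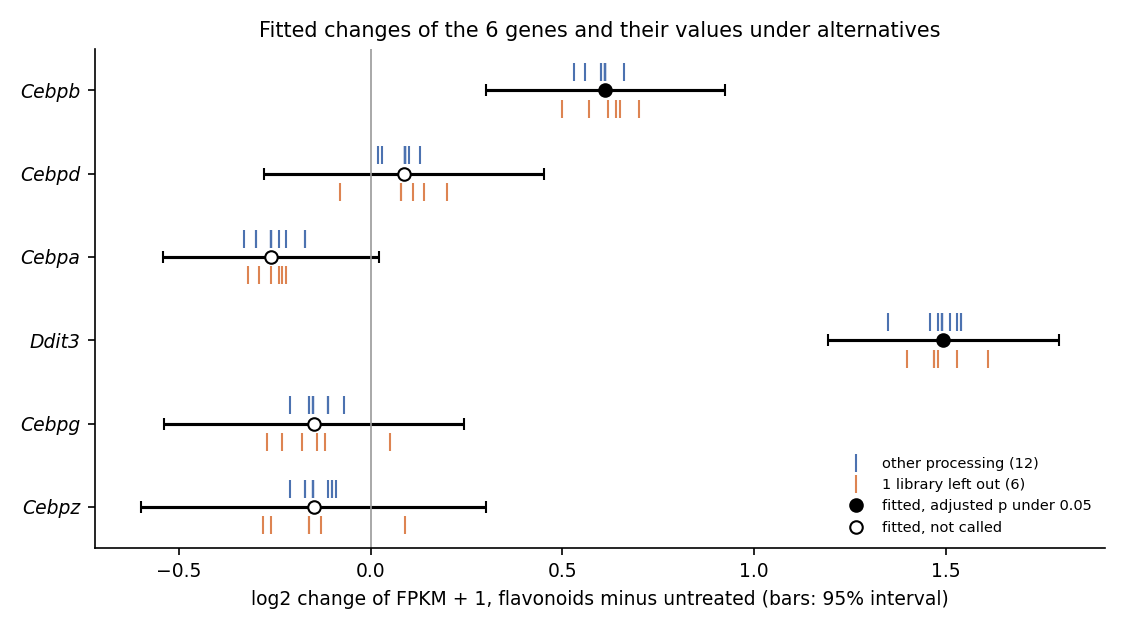
Fitted log2 change (flavonoids minus untreated, log2 of FPKM + 1) of the 6 genes, with circles for the limma estimate and bars for its 95% interval. Filled circles passed an adjusted p of 0.05, and small lines give the estimate under 12 other ways of processing and with each of 6 libraries left out. The intervals of Ddit3 and Cebpb lie above 0, and those of the other 4 genes include 0.

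Per length, the order of mean levels in untreated samples was Cebpd, Cebpb, Ddit3, Cebpg, Cebpz and Cebpa. Cebpd and Cebpb did not overlap there, although the lowest Cebpd value (180.5 FPKM) was close to the highest Cebpb value (169.6 FPKM). Ddit3 lay above every Cebpg value, Cebpg above every Cebpz value and Cebpz above every Cebpa value. In treated samples the order was the same, but Cebpd at 242.7 ± 6.02 and Cebpb at 230.3 ± 12.7 FPKM overlapped (SD, n = 3 per group). Cebpg and Cebpz, at 11.2 ± 2.68 and 9.35 ± 2.75 FPKM, also overlapped in treated samples. Cebpa followed at 5.82 ± 0.272 FPKM. Cebpe, the granulocyte member of the family, was listed at 0 in 5 libraries and reached 0.0731 FPKM in the remaining one.

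The levels of Ddit3 and Cebpd in this order depend on the lengths by which their fragments were divided. GENCODE holds 2 overlapping gene records named Ddit3. The authors' values imply a length of 2421 bases for Ddit3, 2.50 times its longest GENCODE transcript (969 bases), so its FPKM is lower than a value per base of that transcript would be. For Cebpa, Cebpb, Cebpg and Cebpz the length lay within 1.01 times that of the longest GENCODE transcript. For Cebpd it was 2260 bases, the RefSeq gene length, against 3746 bases in GENCODE, or 0.603 times. With the same fragments divided by the GENCODE length, its mean FPKM would lie below that of Cebpb in both groups. Fragments were not recounted over that longer transcript, so its FPKM there is not known. The top place of Cebpd, its ratios to other genes and the shares within the family therefore depend on the length used.

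The 6 genes summed to 495.6, 453.6 and 357.4 FPKM in untreated and 588.8, 570.8 and 538.0 FPKM in treated samples. Of this sum Ddit3 made up 5.50%, 4.85% and 5.61% in untreated and 11.6%, 11.9% and 11.7% in treated samples, with no overlap. The share of Cebpb was 34.8 ± 0.901% and 40.7 ± 0.70%, and that of Cebpd 52.9 ± 2.09% and 42.9 ± 0.968% (SD, n = 3 per group). Cebpa held 1.66 ± 0.140% and 1.031 ± 0.0956%. Since shares sum to a fixed total, the share of Cebpd was lower while its own level did not pass the test.

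**Figure D4:**
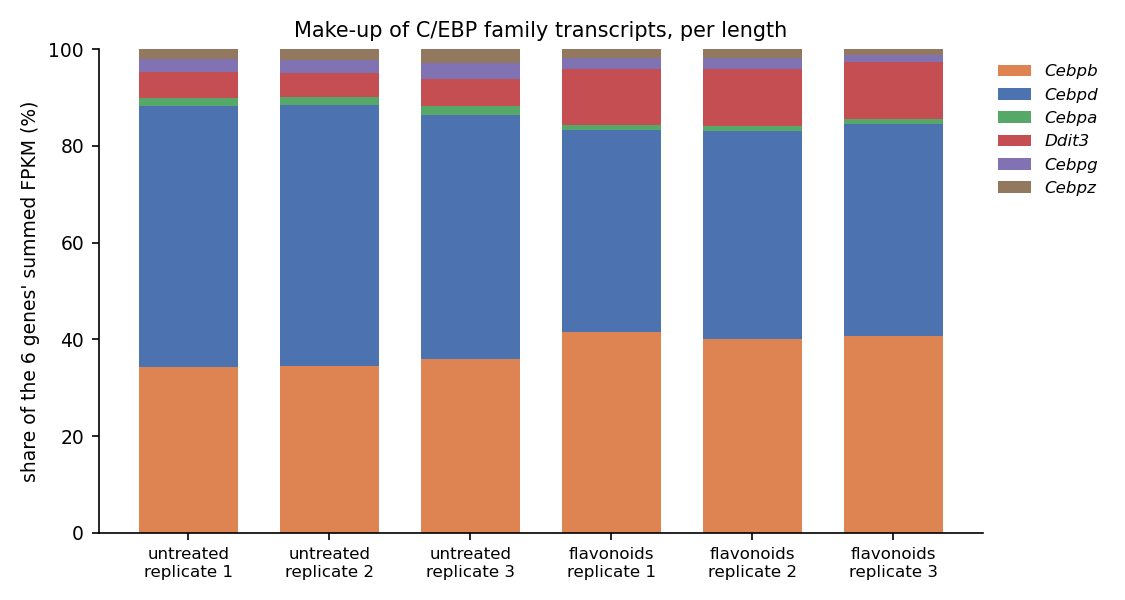
Share of each of the 6 genes in their summed FPKM, as stacked bars for the 6 libraries, in percent. The Ddit3 band goes from 4.85% to 5.61% in untreated samples to 11.6% to 11.9% in treated ones, and the Cebpd band is narrower in all 3 treated samples.

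Neighbouring and overlapping genes were compared because strand use in counting is not given in the sources used here. The last 68 exon bases of Ddit3 are shared with Mars, the methionyl-tRNA synthetase gene on the other strand, which measured 24.9 ± 1.32 and 33.2 ± 2.34 FPKM (limma adjusted p = 0.0551). Cebpb shares 312 exon bases with Tmem189 on the other strand, which measured 51.4 ± 1.001 and 52.0 ± 2.17 FPKM (limma adjusted p = 0.943). Cebpz shares 171 exon bases with Cebpzos, its opposite-strand neighbour, at 15.1 ± 3.79 and 11.9 ± 1.62 FPKM (limma adjusted p = 0.331; n = 3 each, SD). Ndufaf7, a complex I assembly factor gene whose start lies 69 bases from that of Cebpz, had 12.4 ± 2.02 and 9.01 ± 1.01 FPKM (limma adjusted p = 0.121). Cebpd shares 562 exon bases with Spidr, a DNA repair gene on the other strand, at 36.7 ± 1.36 and 36.0 ± 2.14 FPKM (limma adjusted p = 0.906; n = 3 each, SD). Pepd, the peptidase gene next to Cebpg, rose from 17.2 ± 2.41 to 24.2 ± 0.508 FPKM (limma adjusted p = 0.04905; n = 3 each, SD). Reads of overlapping exons cannot be assigned with certainty.

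Genes that act on Ddit3 were described by a list of 12, of which 11 were tested, 2 rose and 1 fell. The median log2 change was 0.05 against -0.02 for all tested genes, of which 9.99% were called. Atf4, the direct activator of Ddit3, rose by 0.68 on the log2 scale, to 902.5, 858.6 and 864.3 FPKM from 672.6, 537.2 and 449.4 FPKM (limma adjusted p = 0.0408). Xbp1, a factor of the unfolded protein response, rose 1.35-fold (limma adjusted p = 0.0449). Eif2ak2, the kinase PKR, was the member that fell, 2.04-fold (limma adjusted p = 0.0405). Of the other kinases that phosphorylate eIF2α, Eif2ak1, Eif2ak3 and Eif2ak4 had limma adjusted p-values of 0.743, 0.822 and 0.336. These 3 calls were lost in the fits without untreated replicate 2, without flavonoids replicate 1, 2 or 3 and without the filter on low values. Eif2ak2 was also not called without untreated replicate 3 or on the TPM scale, and 1 of the 2 genes that rose was not called when the variance was fitted without a trend.

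Of 24 listed targets of ATF4 and CHOP, 21 were tested, 14 rose and 0 fell, with a median log2 change of 0.71. The background is 4.86% of tested genes called higher, but the list was chosen with earlier results of these data known. Trib3, a pseudokinase that binds ATF4, CHOP and AKT proteins, went from 53.7, 42.8 and 41.7 to 130.3, 116.7 and 140.5 FPKM, a log2 change of 1.47 (SE 0.14, limma adjusted p = 0.00180). Chac1, a glutathione-degrading enzyme, and Herpud1, of the endoplasmic reticulum degradation machinery, changed by 1.01 and 1.05 on the log2 scale (limma adjusted p = 0.00288 and 0.00290). Further listed genes linked to CHOP, chosen after their values were seen and not a full set, did not all pass. Ppp1r15a, which directs the dephosphorylation of eIF2α, rose 1.64-fold (limma adjusted p = 0.00833) and Bbc3, a cell death activator, 1.47-fold (limma adjusted p = 0.0403). Ero1l, an oxidase of the endoplasmic reticulum, had a log2 change of -0.38 (SE 0.25, limma adjusted p = 0.357) and the death receptor gene Tnfrsf10b one of 0.22 (limma adjusted p = 0.408). The number that rose was 5 without untreated replicate 2, 5 without flavonoids replicate 1 and 9 without flavonoids replicate 2, and 0 fell in any of the 18 alternatives.

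Possible dimer partners moved in both directions. Of 18 listed, 13 were tested, 3 rose and 2 fell, beside 9.99% of all tested genes called. The median log2 change was 0.07. Atf3 and Atf5, which dimerise with C/EBP proteins, rose by 0.97 and 0.83 on the log2 scale (limma adjusted p = 0.0105 and 0.0108), and Atf4 was the third. Jun and Fos, the AP-1 subunits, fell 1.89-fold and 1.58-fold (limma adjusted p = 0.00431 and 0.0351). Without untreated replicate 2 none of these was called higher and 1 was called lower, and the same was true without flavonoids replicate 1. Without flavonoids replicate 2 the counts were 1 and 1, and without flavonoids replicate 3 they were 2 and 1, while 4 were called lower without untreated replicate 3.

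Among regulators that act before or beside C/EBP factors in adipogenesis, 21 of 22 were tested, with a median log2 change of -0.14. Beside 9.99% of all tested genes called, 1 of the 21 rose and 4 fell. The 4 were Klf2 and Gata2, known repressors of Pparg, Egr2, which induces Cebpb early in differentiation, and Foxo1, a factor held back by insulin. Klf2 measured 127.8 ± 5.17 and 82.0 ± 7.73 FPKM, and Gata2 2.67 ± 0.148 and 1.20 ± 0.153 FPKM (SD, n = 3 each), with limma adjusted p = 0.0135 and 0.0141. Egr2 fell 1.55-fold and Foxo1 1.76-fold (limma adjusted p = 0.0449 and 0.0412), and Xbp1, named above, was the gene that rose. Pparg measured 11.4, 11.6 and 9.32 FPKM in untreated and 11.7, 12.3 and 10.7 FPKM in treated samples, with a 95% interval of the log2 change from -0.20 to 0.39. Without untreated replicate 2, flavonoids replicate 1 or flavonoids replicate 2 none of the 21 was called, and 2 fell without flavonoids replicate 3, without untreated replicate 3, on the TPM scale, with quantile scaling or with a minimum mean of 5 FPKM. Without the filter on low values 0 rose and 2 fell.

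Of 20 adipocyte genes that C/EBPα is known to bind, only 11 reached a mean of 1 FPKM. Of those 1 rose and 0 fell, where 9.99% of all tested genes were called, and the median log2 change was 0.30. The gene that rose was Agt, which encodes angiotensinogen, with 58.1, 59.0 and 51.9 FPKM in untreated and 74.8, 87.7 and 109.8 FPKM in treated samples (limma adjusted p = 0.0288). It was not called without untreated replicate 2, without flavonoids replicate 1 or 2 or without the filter on low values. Fabp4, the fatty acid carrier, measured 251.0, 230.0 and 177.1 FPKM in untreated and 193.9, 166.0 and 149.3 FPKM in treated samples (limma adjusted p = 0.1995), so the groups overlapped. With the trend over gene length removed 4 of the 11 rose and 1 fell.

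Of 22 acute-phase and cytokine genes that C/EBPβ and C/EBPδ are known to drive or that signal to them, 21 were tested. Of these 2 rose and 1 fell, with a median log2 change of 0.13, where 9.99% of all tested genes were called. Saa3, serum amyloid A3, measured 1797, 1146 and 822 FPKM in untreated and 3266, 2600 and 2646 FPKM in treated samples (log2 change 1.24, limma adjusted p = 0.0270). Cxcl1, a chemokine, rose 1.51-fold and Tnfaip6, a hyaluronan-binding protein gene, fell 1.74-fold (limma adjusted p = 0.0413 and 0.0206). Lcn2, lipocalin 2, measured 1041 ± 167 and 1585 ± 141.5 FPKM (limma adjusted p = 0.0627; n = 3 each, SD), and Socs3 had a log2 change of -0.01. Of the 3 macrophage markers tested, Cd14 was also higher, at 12.6 ± 3.13 and 23.4 ± 1.16 FPKM (limma adjusted p = 0.0169). The other tested markers, Cd68 and Lyz2, had log2 changes of -0.16 and -0.04 and were not called (limma adjusted p = 0.676 and 0.909). The part of other cells in the acute-phase and cytokine genes was not tested. None of the 21 was called without untreated replicate 2 or without flavonoids replicate 1, 2 or 3, while 4 rose and 2 fell without untreated replicate 1 and 3 rose and 3 fell without untreated replicate 3. None was called without the filter on low values either, and 4 rose and 4 fell with the trend over gene length removed.

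Of 20 listed symbols of nucleolar and ribosome assembly genes that work beside Cebpz, 19 had an entry and were tested. The symbol without an entry, Rrp5, is another name of Pdcd11, which is among the 19. Of the 19 genes 8 rose and 0 fell, with a median log2 change of 0.52, where 4.86% of all tested genes were called higher. Nop2, an rRNA methyltransferase gene, went from 17.0, 15.0 and 14.4 to 31.0, 32.3 and 39.2 FPKM (log2 change 1.09, limma adjusted p = 0.00377). Mybbp1a and Nop56, both nucleolar, rose 1.96-fold and 1.57-fold (limma adjusted p = 0.00440 and 0.0106). Noc2l, whose yeast counterpart pairs with that of Cebpz, rose 1.55-fold (limma adjusted p = 0.0164). Cebpz itself was not among the genes called, and the difference between its change and that of the list was not tested. The number that rose was 2 without untreated replicate 2, 2 without flavonoids replicate 1 and 3 without flavonoids replicate 2, and 14 with the trend over gene length removed.

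Of 17 listed symbols of genes known to act on C/EBP protein or message, 16 were tested. Cop1, another name of the listed Rfwd2, had no entry. Of the 16 genes 1 rose and 2 fell, with a median log2 change of -0.02, where 9.99% of all tested genes were called. Trib2, a pseudokinase that directs C/EBPα to degradation, went from 11.3, 11.6 and 11.8 to 6.37, 6.84 and 6.86 FPKM, a 1.73-fold fall (limma adjusted p = 0.00846). Trib1, its relative, measured 5.22, 5.34 and 5.95 FPKM in untreated and 7.47, 7.32 and 8.16 FPKM in treated samples, which did not pass (limma adjusted p = 0.0681). Eif4ebp1, a translation repressor and ATF4 target, rose 1.65-fold, and Zfp36, an RNA-binding protein that shortens mRNA life, fell 1.42-fold (limma adjusted p = 0.0303 and 0.0483). None of the 16 was called without untreated replicate 2 or without flavonoids replicate 1, 1 was called without flavonoids replicate 2 or 3, and 1 rose and 1 fell without untreated replicate 1. Without the filter on low values 0 rose and 1 fell. Protein levels were not measured.

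**Figure D5:**
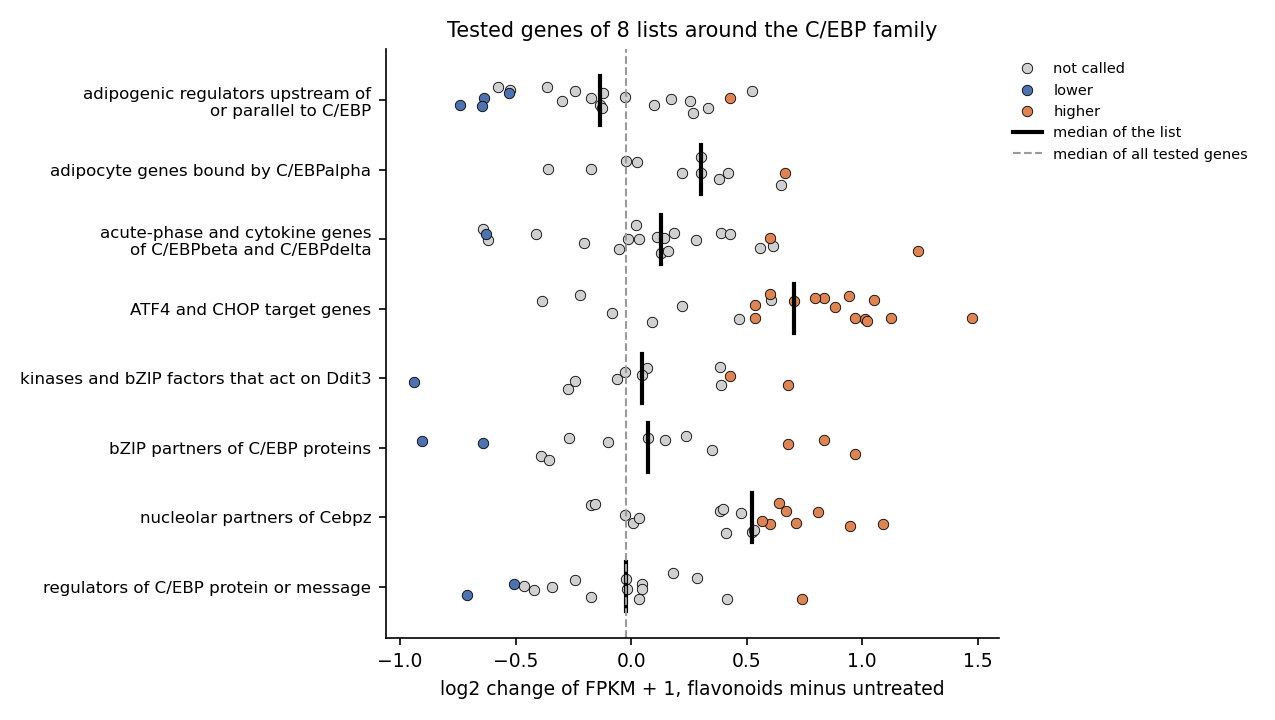
log2 change (flavonoids minus untreated, log2 of FPKM + 1) of the tested genes of 8 lists, with 1 point per gene and lists in rows, where vertical scatter within a row has no meaning. Orange and blue points were called higher and lower, black lines are list medians and the dashed line is the median of all tested genes (-0.02). The list of ATF4 and CHOP targets (median 0.71) and that of nucleolar partners of Cebpz (median 0.52) lie mostly to the right of it, and 0 of their genes were called lower. All 8 lists were chosen with earlier results of these data known.

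The genes most like each member over the 6 libraries were sought among named genes averaging at least 5 FPKM, 7344 for each member, by Pearson r of log2(FPKM + 1). These r values describe 6 points that fall into groups and carry no test. Genes picked in this way share a member's pattern by selection, so that likeness is no separate result. Those most like Ddit3 were Chac1 (r = 0.998), the cathepsin K gene Ctsk (0.997) and the ATP-gated channel gene P2rx4 (0.997), all called higher. Those most like Cebpb were Cth, cystathionine gamma-lyase (0.999), Smndc1, a splicing factor gene (0.999), and Nme6 (0.997). Cth measured 12.4, 11.2 and 7.87 FPKM in untreated and 24.4, 21.4 and 20.3 FPKM in treated samples, the same order of libraries as Cebpb. Cebpa was most like Pja1, a ubiquitin ligase gene (0.997), the centromeric histone gene Cenpa (0.997) and Csrp2 (0.996). For Cebpg these were Dars, aspartyl-tRNA synthetase (0.993), Bzw1 (0.991) and Eif2s2, a subunit of eIF2 (0.991), and for Cebpz Orc4, of the origin recognition complex (0.993), Tigd2 (0.990) and Tbc1d15 (0.990). All 6 genes most like Cebpg or Cebpz, picked by these same values, were lowest in flavonoids replicate 3. Among the genes most like Cebpd were the pseudogene Rpl9-ps6 (0.994) and Idh3b, an isocitrate dehydrogenase subunit (0.994), both low in untreated replicate 3 as Cebpd was.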

How the data were processed

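The submitters' processing notes name FastQC, HISAT2 and the build mm10, with no versions. The authors deposited 1 table of FPKM values per gene symbol for the 6 samples. Which counting tool, annotation and strand setting they used is not given in the sources here. Fragment numbers and gene lengths were solved from the steps between a gene's values: all 22235 genes above 0 came out whole within 0.005 fragments, and 98.7% of 3000 lengths checked were whole within 0.1 bases. They give depth, and the solution is too small where a gene's numbers share a divisor.

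Groups follow the labelled treatment. Tests used limma 3.58.1 (R 4.3.3) on the 11464 genes averaging at least 1 FPKM, after adding 1 and taking log2, with eBayes trend and no covariate, and its 95% intervals are given. Fold changes in mean FPKM are given for single genes. A fold on the log2(FPKM + 1) scale understates changes of low genes. An exact permutation of 3 against 3 samples cannot go below p = 0.1 and was not used. The genes and the 8 lists were chosen with earlier results of these data known. Named are all 6 genes, in each list mainly the 3 called genes of smallest p, the 3 genes most like each member, overlapping neighbours, and further list genes chosen after their values were seen. Scripts were tested on simulated data. Python 3.11.15 (numpy 2.4.6, pandas 2.3.3, matplotlib 3.10.9) was used for the rest. Alternatives were the replicate block, pseudocounts of 0.1 and 5, other filters, TPM scale, median-ratio and quantile scaling, other variance settings, removal of each library's trend over gene length (loess, span 0.5), voom on the solved fragments, and leaving out each library.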

Additional observations from a re-analysis of the deposited data

How the results depend on the processing

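Over 18 alternatives the direction held for Ddit3, Cebpb and Cebpa. Ddit3 was called in all 18, Cebpb in 12, and Cebpa, Cebpd, Cebpg and Cebpz in none. With 1 library left out, the log2 change of Cebpb ran from 0.50 to 0.70, that of Cebpd from -0.08 (without untreated replicate 3) to 0.20, that of Cebpg from -0.27 to 0.05 and that of Cebpz from -0.28 to 0.09 (both positive without flavonoids replicate 3). Genes called higher, 557 with all libraries, then numbered 64 to 875, genes called lower, 588, numbered 76 to 827, both lowest without untreated replicate 2. List genes called, 38, numbered 8 to 43, with 8 both without untreated replicate 2 and without flavonoids replicate 1. Fewer samples enter those fits. Deviations of same-numbered samples from their group means correlated at -0.143, -0.117 and -0.203. For untreated replicates 1, 2 and 3 the highest correlation with a treated sample of another number was 0.154, 0.129 and 0.169. The opposite length trends of untreated replicates 1 and 3 enter these values, so they cannot settle whether samples were paired. With the replicate block there were 220 genes higher, 237 lower and 20 list genes, and Cebpb had a log2 change of 0.61 (limma adjusted p = 0.0520). Under the block 10 ATF4 and CHOP targets and 6 nucleolar genes rose, 2 dimer partners rose and 2 fell, 1 acute-phase gene rose, 1 regulator of C/EBP protein or message fell, and no call was left among genes acting on Ddit3, adipogenic regulators or adipocyte genes. Without the filter, with 22235 genes tested, these were 317, 324, 20 and 0.61 (0.0689). With the length trend removed they were 1379, 1131 and 59, and Cebpb stayed called. The cause was not tested. TPM scale, median-ratio and quantile scaling moved the median of all genes to between -0.077 and 0.019 and changed no call of the 6 genes. Without counts deposited, depth is known only through the solved fragments.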
